A study of Homo sapiens with 4 samples.

Results

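The genes described here encode the SR proteins and the heterogeneous nuclear ribonucleoproteins (hnRNPs). They were taken by symbol from the coding genes of GENCODE 44: 12 genes named SRSF with a number, the 2 genes TRA2A and TRA2B, and 27 genes whose symbol starts with HNRNP, 41 genes of 20046 in all. PAS-seq reads the ends of polyadenylated RNA and thereby locates the cleavage sites of transcripts. It was carried out on KYSE30 and TE-1, both established human esophageal squamous cell carcinoma (ESCC) lines, to ask whether lactate affects alternative polyadenylation. Each line gave 1 library of cells exposed to 20 mM l-lactate for 24 h and 1 control library, which the labels call PBS. The cell line field of the controls reads KYSE32 and TE-3, while the titles of these libraries and the paper point to KYSE30 and TE-1, the names used here. Neither a genotype nor an age of the cultures is given, and no group has a second library, so every interval below that is called a counting interval covers counting error only.

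The unit of measurement was the PAS cluster (PAC), a group of neighbouring cleavage sites, with its TPM, the number of its tags relative to all tags of that library. A tag marks 1 cleaved 3′ end, so TPM carries no division by transcript length and levels of different genes can be set side by side. Of the 41 genes, 34 held the dominant site (the position where most tags end) of at least 1 PAC on their own strand, and they held 75 of 17627 PACs. The libraries listed 70 and 67 of these PACs for l-lactate and control in KYSE30, 72 and 72 in TE-1, and 65 in all 4. HNRNPCL1, HNRNPCL2, HNRNPCL3, HNRNPCL4, HNRNPA1L2, HNRNPH2 and SRSF12 held none. The readthrough gene HNRNPUL2-BSCL2 shares both of its PACs with HNRNPUL2 and is counted only where this is said. A PAC enters the tables from about 1 TPM, and one that a library does not list was taken as 0 in sums.

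SR proteins carry RNA recognition motifs and a domain rich in arginine and serine, and typically bind exonic enhancers and help the spliceosome to define exons. TRA2A and TRA2B are SR-like regulators of the same kind. The hnRNPs coat nascent transcripts, and several of them, such as HNRNPA1, often oppose SR proteins at splice sites, while HNRNPK, HNRNPC, HNRNPD and HNRNPL are also known for roles in export, stability or polyadenylation of mRNA. Many genes of both families control their own level through alternative exons and alternative 3′ ends of their transcripts.

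The cleavage sites themselves show what was compared. The following windows are the 30 nt that end at the dominant site of each PAC, read from GRCh38 on the transcript strand and written as DNA. They are shown for the 6 genes whose distal usage differed most between libraries and for the closely related ends of HNRNPA1 and HNRNPA1L3. Capitals mark the poly(A) signal AATAAA or, where there is none, its common variant ATTAAA.

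SRSF6 proximal, chr20:43461521-43461550, plus strand: atgtaagatttaAATAAAagtttgctacca
SRSF6 distal, chr20:43463574-43463603, plus strand: ttaaatctcAATAAAatacttactgaggga
SRSF2 proximal, chr17:76734838-76734867, minus strand: ttgtttgaaATTAAAcagattggtaaccta
SRSF2 distal, chr17:76734128-76734157, minus strand: tagtttaATTAAAacattttcttggtgtta
HNRNPK proximal, chr9:83968909-83968938, minus strand: atgatttttaaAATAAAtttagtgaaccta
HNRNPK distal, chr9:83968178-83968207, minus strand: ttccaaataAATAAAacacccatgatgcta
HNRNPUL2 proximal, chr11:62714753-62714782, minus strand: acgattggctcttatcaatcacttgcacca
HNRNPUL2 distal, chr11:62712635-62712664, minus strand: agttttagAATAAAtaaccatttggattga
HNRNPH3 proximal, chr10:68342240-68342269, plus strand: ctttgacttaaaAATAAAtttttatattca
HNRNPH3 distal, chr10:68343157-68343186, plus strand: gaaatgttattAATAAAtgtcattgtggga
HNRNPA2B1 proximal, chr7:26191846-26191875, minus strand: tttatgatttAATAAAataattctaaagga
HNRNPA2B1 distal, chr7:26190127-26190156, minus strand: agtttataaAATAAAtactttttgtatcca
HNRNPA1 proximal, chr12:54284851-54284880, plus strand: tcgtgacgctgAATAAAtgtctttttttta
HNRNPA1L3, chr16:51647088-51647117, plus strand: tcgtgacgctggataaatgtcttttttttt

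All of these sites lie in annotated 3′ UTRs. Both PACs of SRSF2 carry the variant signal, while both PACs of SRSF6, HNRNPK, HNRNPH3 and HNRNPA2B1 carry AATAAA. In the proximal PAC of HNRNPUL2 29 nt lie between the AATAAA and the site, and the signal starts before the window shown. HNRNPA1L3 is a copy of HNRNPA1. Its window has the same base as that of HNRNPA1 at 28 of 30 positions, holds neither signal, and is followed in the genome by 10 bases of which 9 are A. Its single site had between 20.9 and 25.2 TPM, and tags of HNRNPA1 and of its copy may not be told apart there.

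Among the 69 PACs of these genes in 3′ UTRs, 50 (72.5%, Wilson 95% interval 61.0 to 81.6) had AATAAA within the 50 nt before the cleavage site. A further 12 (17.4%) had ATTAAA without AATAAA, and 7 (10.1%) had neither. Over the 13692 3′ UTR PACs of all coding genes these shares were 66.6%, 16.8% and 16.6%. TGTA, the DNA form of the UGUA element bound by the cleavage factor CFIm, occurred in the 100 nt upstream of 68.1% of these PACs (interval 56.4 to 77.9) and of 58.0% of all. Motifs were sought on the transcript strand only, and a match is no more than the presence of these letters. A stretch rich in A followed the site in 2 of the 69 PACs, those of HNRNPA1L3 and the first of SRSF11.

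The families were abundant in both lines and varied widely among themselves. Their summed level was 14341 TPM with l-lactate and 13876 TPM in the control of KYSE30, and 17940 and 16681 TPM in TE-1, or 1.55%, 1.5%, 1.93% and 1.79% of all listed TPM. SR protein genes made up 3430, 3312, 4064 and 3737 TPM of this in the same order, and hnRNP genes the rest. All sums are higher in TE-1 than in KYSE30 and, within a line, higher in the l-lactate library.

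HNRNPA1, a splicing repressor and the most abundant of the genes, had 3146 and 3099 TPM with l-lactate and in the control of KYSE30, and 3567 and 3497 TPM in TE-1. HNRNPA2B1, its relative that also binds RNA in transport granules, had 1366 and 1252 TPM in KYSE30 and 1957 and 1730 TPM in TE-1. HNRNPU, a nuclear matrix protein that binds chromatin-associated RNA, had 632 and 598 TPM in KYSE30 and 1314 and 1162 TPM in TE-1. In each of these the 2 TE-1 libraries lie above both KYSE30 libraries, and how many of all genes do so was not counted. At the other end, SRSF4 had a mean of 4.76 TPM, below the minimum of 5 TPM for testing. The dominant site of its single PAC fell just past the annotated gene end in the KYSE30 control, and that library was kept in its sum. The 32 genes that passed had a median of 302 TPM, against 32.3 TPM over all 9164 genes that passed.

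**Figure D1:**
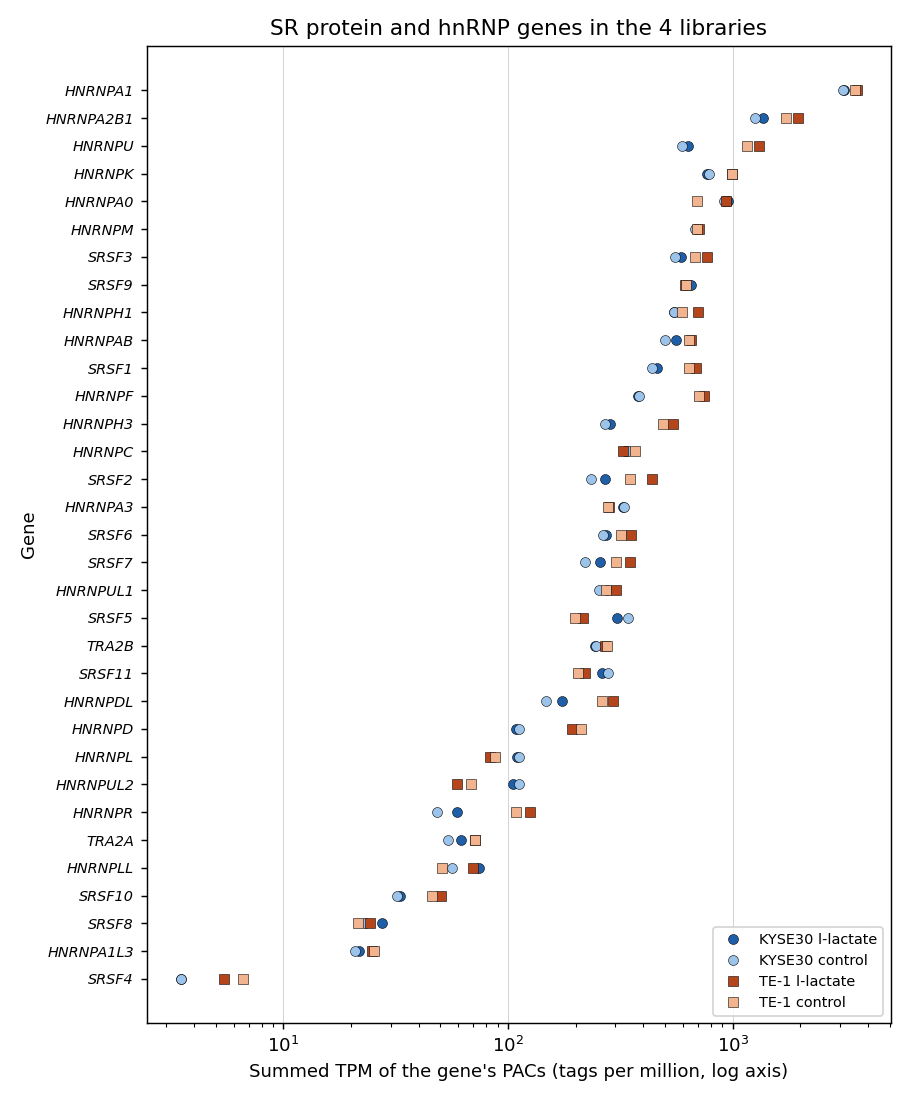
Summed TPM of each gene (rows, ordered by mean) in the 4 libraries on a log axis, 1 point per library. HNRNPA1 stands at the top with 3099 to 3567 TPM and SRSF4 at the bottom with 3.48 to 6.64 TPM, and for most genes the points of a line lie closer to each other than to those of the other line.

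The largest differences in level lay between KYSE30 and TE-1. The levels were compared with limma on log2(TPM + 1), with line and treatment as terms, over all 9164 coding genes with a mean of at least 5 TPM. The error of both terms rests on the single residual of each gene, how far the difference between the lines differs between the treatments, moderated over all genes, and it may be smaller than the spread between cultures. After Benjamini-Hochberg adjustment over all genes, 18 of 32 genes were higher in TE-1 (37.2% of all genes tested were) and 6 were lower (36.8% of all). Counting HNRNPUL2-BSCL2 as a gene of its own makes 7 lower of 33. The median difference of the 32 was 0.27 on the log2 scale, against 0.004 over all genes. SR protein genes were called higher in 7 of 12 cases and lower in 2, and hnRNP genes higher in 11 of 20 and lower in 4. A smaller share of tags and less RNA per cell cannot be told apart here.

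Higher in TE-1 were, first, HNRNPR, which binds neuronal and other mRNAs, with 59.2 and 48.5 TPM in KYSE30 (l-lactate, then control) and 125 and 109 TPM in TE-1. The difference was 1.11 ± 0.09 (SE) on the log2 scale, with limma's adjusted p = 6.23e-08. HNRNPU was higher by 1.01 ± 0.06 (limma adjusted p = 4.13e-09), with the values given above. HNRNPF, which binds G-rich RNA, had 378 and 384 TPM in KYSE30 and 744 and 710 TPM in TE-1, a difference of 0.93 ± 0.06 (limma adjusted p = 1.23e-08). HNRNPH3, of the same subfamily, had 286 and 271 TPM in KYSE30 and 542 and 490 TPM in TE-1 (0.89 ± 0.07, limma adjusted p = 2.49e-08). HNRNPD, also known as AUF1 and a binder of AU-rich elements, had 109 and 112 TPM in KYSE30 and 193 and 210 TPM in TE-1 (0.86 ± 0.08, limma adjusted p = 1.77e-07). None of the 5 had overlapping values between the lines, but they were picked for the size of this difference. The share of all genes without overlap was not counted.

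Lower in TE-1 was most clearly HNRNPUL2, an HNRNPU-like protein of the DNA damage response, with 105 and 112 TPM in KYSE30 and 59.4 and 68.5 TPM in TE-1. It fell by 0.75 ± 0.09 on the log2 scale (limma adjusted p = 3.40e-06). SRSF5, an SR protein that promotes exon inclusion, had 306 and 343 TPM in KYSE30 and 215 and 198 TPM in TE-1, and fell by 0.65 ± 0.08 (limma adjusted p = 4.54e-06). HNRNPL, which binds CA repeats, had 110 and 112 TPM against 82.9 and 87.2 TPM (limma adjusted p = 9.58e-04). SRSF11 had 261 and 280 TPM against 220 and 206 TPM (limma adjusted p = 8.03e-04), and HNRNPA3 had 323 and 328 TPM against 281 and 278 TPM (limma adjusted p = 0.0092). For these 5, picked in the same way, the 2 lines did not overlap either, and again the share over all genes was not counted. The sixth, HNRNPA0, fell by 0.22 ± 0.08 (limma adjusted p = 0.0252), but its libraries overlapped.

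**Figure D2:**
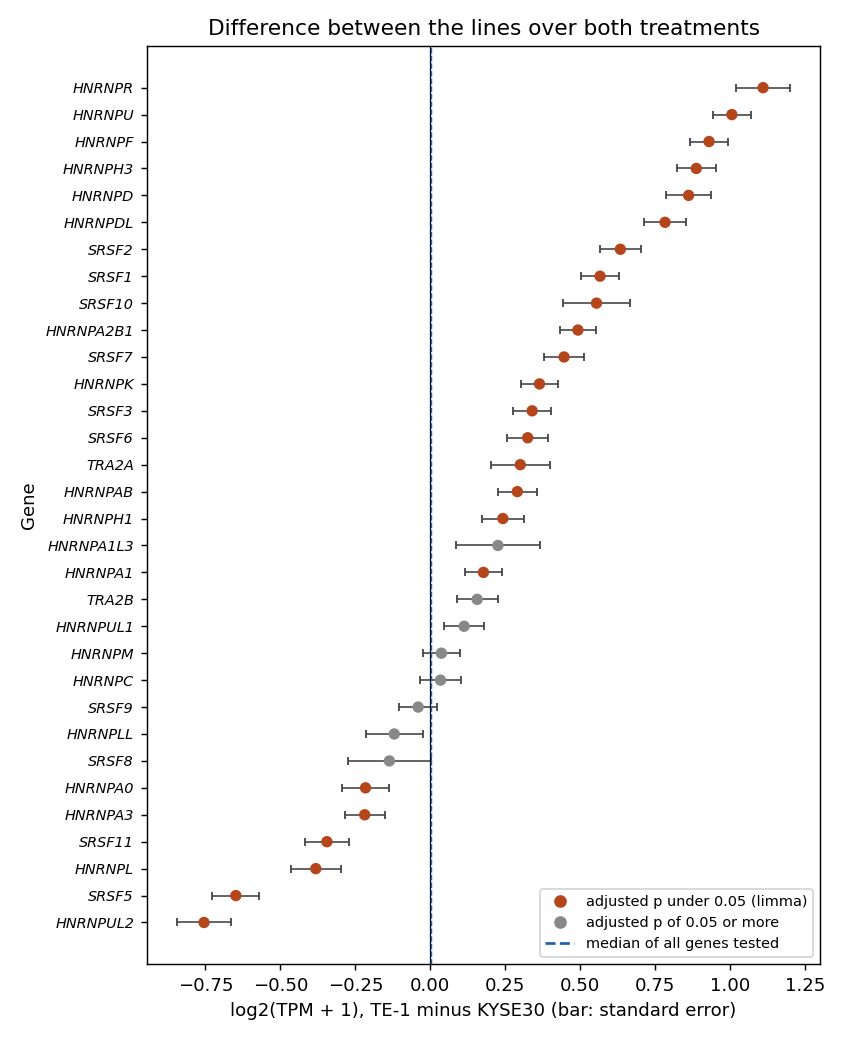
Difference in log2(TPM + 1) between TE-1 and KYSE30 over both treatments for 32 genes (rows), with the standard error from limma as bars, red where the adjusted p was under 0.05. The points run from -0.75 for HNRNPUL2 to 1.11 for HNRNPR, and more lie right of the dashed median of all genes (0.004) than left of it.

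Other splicing factors, a list of 39 genes of which 37 were tested, split more evenly. In TE-1, 12 were higher (37.2% of all genes tested were) and 14 lower (36.8% of all), near the shares over all genes. Their median was -0.04, against 0.004 over all genes. The SR protein kinases SRPK1 and SRPK2 were among those higher, with 132 and 133 TPM in KYSE30 and 199 and 184 TPM in TE-1 for SRPK1, and 40.8 and 41.9 against 77.5 and 71.6 TPM for SRPK2. The kinase CLK3 was also higher (0.63 ± 0.13) and CLK4 lower (it fell by 0.77 ± 0.19). ESRP1, an epithelial splicing regulator, had 251 and 257 TPM in KYSE30 and was not listed in TE-1. SF3B1, a core subunit of the U2 particle, fell by 1.19 ± 0.07, from 310 and 308 TPM in KYSE30 to 139 and 132 TPM in TE-1.

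The markers of squamous epithelial cells also moved with the line. Of 9 such markers, KRT5, KRT14 and TP63 were listed in no library, 5 were lower in TE-1 and 1, KRT17, was higher, with a median difference of -5.96. None of 4 blood markers was listed, and of 4 fibroblast or endothelial markers 3 were listed nowhere. The fourth, COL1A1, was listed in TE-1 only, at 4.84 TPM with l-lactate and 5.39 TPM in the control. The part of these differences in the levels above was not tested. No library had to be set aside. Tag totals ran from 7174991 to 10393799, with the l-lactate library the smaller of each line.

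With l-lactate, the levels differed little from the controls. No gene passed the limma test over both lines at an adjusted p of 0.05, where 4 of all 9164 genes (0.0436%) did. Here the error is the spread of the effect between the 2 lines. At an unadjusted p under 0.05 there were 7 genes (10.8% of all genes were under it). None was past a 1.5-fold difference in either direction in KYSE30, where 1.87% of all genes were higher and 1.79% lower, or in TE-1, where the shares were 2.4% and 1.28%.

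The small differences leaned to one side. Of 32 genes, 20 were higher with l-lactate in both lines (30.8% of all genes were), 6 were lower in both (21.7% of all) and 6 went opposite ways (41.8% of all). The 20 held 8 of 12 SR protein genes and 12 of 20 hnRNP genes. The median of the 32 was 0.09 on the log2 scale, against 0.02 over all genes tested. In 11 genes the counting interval of the ratio lay above 0 in both lines (4.38% of all genes), and in 0 it lay below 0 in both (2.67% of all). These 11 were HNRNPA0, HNRNPA2B1, HNRNPDL, HNRNPLL, HNRNPR, HNRNPU, HNRNPUL1, SRSF1, SRSF2, SRSF3 and SRSF7. Since the genes are more abundant than most, their intervals are also narrower, and the part of this in the count was not tested. With TPM rescaled by TMM factors, a choice made after the data were seen, the counts were 15 higher (26.4% of all genes) and 7 lower (26.2%) in both lines.

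HNRNPLL, a relative of HNRNPL that regulates splicing in lymphocytes, differed most. It had 74.3 TPM with l-lactate and 56.4 TPM in the control of KYSE30, and 69.7 and 50.8 TPM in TE-1. On the log2 scale the ratio was 0.40 (counting interval 0.21 to 0.58) in KYSE30 and 0.46 (0.28 to 0.63) in TE-1, and limma's adjusted p was 0.145. Both l-lactate libraries lie above both controls.

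SRSF2, also called SC35 and an exon definition factor, had 271 and 234 TPM in KYSE30 and 438 and 350 TPM in TE-1. Its log2 ratios were 0.21 (interval 0.12 to 0.30) and 0.32 (0.26 to 0.39), and limma's adjusted p was 0.19. The order of its libraries follows the line first and l-lactate second.

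HNRNPA0 had 957 and 918 TPM in KYSE30 and 938 and 695 TPM in TE-1, with log2 ratios of 0.06 and 0.43 and a limma adjusted p of 0.292. Only the TE-1 control stands apart. These 3 genes, which lie outside the rule for naming, are named because they were called with a pseudocount of 5 TPM in place of 1 (limma adjusted p = 0.00606, 0.0237 and 0.0189). HNRNPUL2 and HNRNPC, a nuclear hnRNP that coats long transcripts, were the lowest, with log2 differences of -0.14 and -0.11 over both lines. HNRNPC had 331 and 343 TPM in KYSE30 and 325 and 367 TPM in TE-1. Neither passed the test (limma adjusted p = 0.625 and 0.600).

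**Figure D3:**
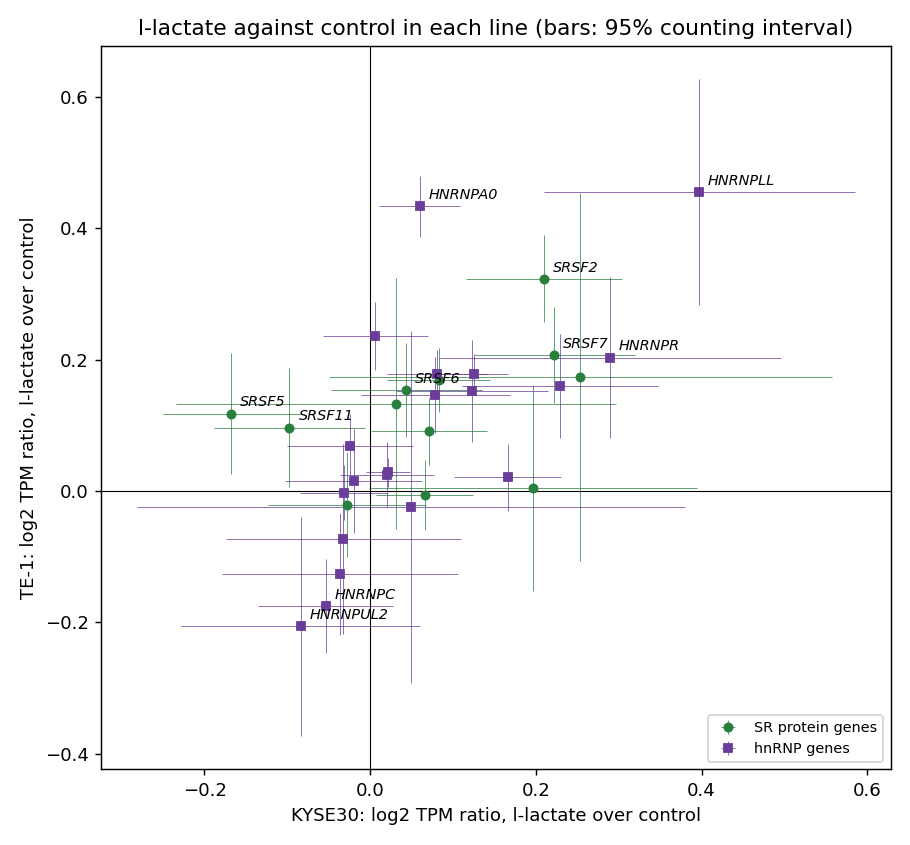
log2 ratio of TPM with l-lactate over control in KYSE30 (horizontal) and TE-1 (vertical) for 32 genes, with 95% counting intervals as bars. Most points lie in the upper right field, where 20 genes were higher in both lines, and HNRNPLL is farthest out at 0.40 and 0.46.

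Alternative 3′ UTR ends were common in these genes. Of the 33 with a 3′ UTR PAC, 20 (60.6%) had 2 or more of them against 28.1% of all coding genes. The part of their higher levels in this was not tested. Distal usage was taken as the share of the 3′ UTR tags of a gene at its most distal PAC, over PACs above 5 TPM in a library of the pair. It could be had for 17 genes in KYSE30 and 16 in TE-1. In KYSE30, 0 of 17 changed by 10 percentage points or more with l-lactate (9.16% of 1670 genes did). In TE-1, 1 of 16 did (11.3% of 1679 genes).

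That gene was SRSF6, an SR protein whose 2 PACs lie 2053 nt apart in its 3′ UTR. Its distal PAC held 49.7% (l-lactate) and 38.6% (control) of the 3′ UTR tags in TE-1, a change of 11.1 points (Newcombe interval 8.66 to 13.5). In KYSE30 it held 56.8% and 49.0%, a change of 7.79 points (4.66 to 10.9). The proximal PAC went from 135 TPM in the control to 117 TPM with l-lactate in KYSE30 and from 196 to 178 TPM in TE-1, while the distal PAC went from 129 to 154 TPM and from 123 to 176 TPM. In both lines the proximal value was the lower and the distal value the higher with l-lactate.

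The genes nearest below the limit were HNRNPUL2 and SRSF2 in TE-1. The distal share of HNRNPUL2 was 42.9% with l-lactate and 36.8% in the control of KYSE30, and 30.6% and 21.9% in TE-1, changes of 6.08 points (interval 1.3 to 10.9) and 8.71 points (3.70 to 13.8). That of SRSF2 was 83.0% and 82.6% in KYSE30, a change of 0.44 points (-2.00 to 2.89), and 72.0% and 63.4% in TE-1, a change of 8.63 points (6.5 to 10.8). HNRNPK, a poly(C)-binding protein, had 40.9% and 38.2% in KYSE30 and 31.8% and 27.6% in TE-1. HNRNPA2B1 had 20.9% and 18.3% in KYSE30 and 10.95% and 8.73% in TE-1, leaving out a PAC 18313 nt past its first one that stayed under 5 TPM. In all 5 genes the distal share was the larger with l-lactate in both lines, and the interval of the change lay above 0 except for SRSF2 in KYSE30. These 5 were named with their changes known. In KYSE30, 7 of the 17 genes were more distal with l-lactate and 10 less (43.2% of all coding genes measured were more distal). In TE-1, 10 of 16 were more distal and 6 less (53.3% of all were more distal).

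Other genes went the other way. The distal share of SRSF1, the founding SR protein, was 2.42% with l-lactate and 2.90% in the control of KYSE30, a change of -0.48 points (interval -1.27 to 0.31). In TE-1 it was 4.67% and 8.04%, a change of -3.37 points (interval -4.21 to -2.51). HNRNPU and HNRNPA0 also had a smaller distal share with l-lactate in both lines, with changes between -1.81 and -0.85 points. The distal PAC of HNRNPU, at chr1:244840646, lies 13014 nt past its first one, where a retained-intron transcript ends, and outside the span of its protein_coding transcripts. HNRNPH3 changed by -3.31 points in KYSE30 (interval -6.17 to -0.44) and by -0.58 points in TE-1 (-2.24 to 1.07). SRSF10 went opposite ways, by -5.51 points in KYSE30 (-12.8 to 1.72) and 6.59 points in TE-1 (0.81 to 12.4). In KYSE30 the interval of the change lay above 0 in 4 genes (10.4% of all genes) and below 0 in 3 (16.5%). In TE-1 it lay above 0 in 8 (21.0% of all) and below 0 in 3 (16.4%). Here too abundant genes have narrower intervals, and the part of this in the counts was not tested. The median change was -0.48 points in KYSE30 (-0.51 over all genes) and 1.02 points in TE-1 (0.27 over all).

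**Figure D4:**
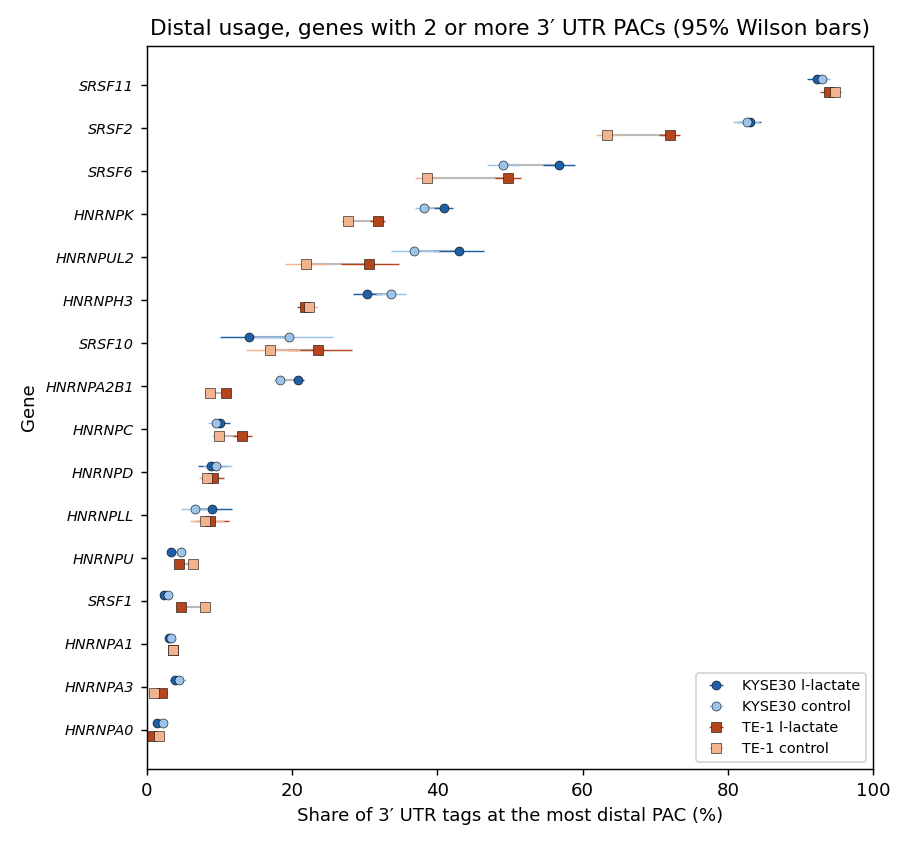
Share of 3′ UTR tags at the most distal PAC (percent) for the 16 genes measured in both lines, with 95% Wilson intervals, circles for KYSE30 and squares for TE-1, dark for l-lactate and pale for control. SRSF6 shows the widest gap between dark and pale squares (49.7% and 38.6%), and for SRSF2, SRSF6, HNRNPK, HNRNPUL2, HNRNPH3 and HNRNPA2B1 the squares lie left of the circles of the same shade.

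Distal usage differed more between the lines than with l-lactate, a comparison added after the data were seen. Among controls, 5 of 17 genes used the distal PAC less in TE-1 by 10 points or more (25.6% of 1833 genes did) and 0 used it more (8.67% of all). The differences were -19.2 points for SRSF2 (interval -21.5 to -16.8), -14.9 for HNRNPUL2, -11.3 for HNRNPH3, -10.5 for HNRNPK and -10.4 for SRSF6. With l-lactate the count was 2 of 17 (21.2% of 1874 genes), HNRNPUL2 at -12.3 and SRSF2 at -11.0 points, and 0 used it more (11.4% of all). HNRNPH3 had a distal share of 30.3% and 33.6% in KYSE30 and 21.8% and 22.4% in TE-1. The count among controls is near the share over all genes. SRSF1 differed in the other direction, by 5.14 points among controls (interval 4.25 to 6.0) and 2.27 points with l-lactate (1.5 to 3.02).

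Nearly all tags of these genes ended in 3′ UTRs. The 3′ UTR share was 99.83% with l-lactate and 99.85% in the control of KYSE30, and 99.74% and 99.76% in TE-1, against 97.86% to 97.90% over all coding genes. The intronic share was 0.110% (interval 0.091 to 0.132) and 0.115% (0.096 to 0.137) in KYSE30, and 0.151% (0.132 to 0.172) and 0.175% (0.156 to 0.196) in TE-1. Over all coding genes it was 1.42% to 1.47%. The intervals of l-lactate and control overlap in each line. Of these intronic tags, the 2 PACs of SRSF9 held 105 of 113 (l-lactate) and 118 of 118 (control) in KYSE30. In TE-1 they held 204 of 229 and 259 of 303. Both PACs lie outside the span of the coding transcripts of SRSF9, so this share is no measure of intronic cleavage alone. With the exons of protein_coding transcripts only, the intronic share was 0.320% (0.287 to 0.356) and 0.353% (0.319 to 0.391) in KYSE30, and 0.607% (0.569 to 0.647) and 0.694% (0.656 to 0.734) in TE-1, where the intervals then do not overlap. That setting counts PACs of HNRNPA3, HNRNPR, HNRNPU and SRSF5 as intronic. Those of HNRNPR and HNRNPU lie outside the span of the coding transcripts. The distal PAC of HNRNPU alone held 500 of the 922 tags counted so in TE-1 with l-lactate, and 760 of 1203 in the control. The higher share is thus no measure of intronic cleavage alone.

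Intronic PACs were found in 2 genes. In KYSE30 they were listed for 2 of 34 genes with l-lactate (6.53% of all genes with a PAC) and for 1 of 34 in the control (6.39%), and in TE-1 for 2 of 34 in both libraries (7.03% and 7.06%). SRSF9, a short SR protein, held 2, at chr12:120487526 and chr12:120491021, both outside the span of its coding transcripts. The second also lies within the span of the long noncoding RNA gene NRAV, to which its tags may belong. Its part of SRSF9 was 1.22% and 1.52% in KYSE30, and 2.62% and 2.86% in TE-1. The first held 1.03% and 1.04% in KYSE30, and 1.28% and 1.17% in TE-1. SRSF9 as a whole had 650 and 621 TPM in KYSE30 and 616 and 619 TPM in TE-1.

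HNRNPK, with 766 and 783 TPM in KYSE30 and 997 and 999 TPM in TE-1, had an intronic PAC at chr9:83975367. It was listed at 1.12 TPM with l-lactate and not listed in the control of KYSE30, and had 2.95 and 4.23 TPM in TE-1. Its share of the gene in TE-1 was 0.296% with l-lactate and 0.424% in the control, with overlapping intervals (0.201 to 0.437 and 0.316 to 0.569). As 1.12 TPM is 8 tags, the lowest number listed, no difference can be read from KYSE30.

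PACs in exons of noncoding transcripts occurred in HNRNPA3, HNRNPR and SRSF5. The PAC of HNRNPA3 at chr2:177216368 held 2.15% of the gene with l-lactate and 1.23% in the control of KYSE30, and 3.78% and 1.97% in TE-1. The change was 0.92 points (Newcombe interval 0.19 to 1.69) in KYSE30 and 1.81 points (0.91 to 2.76) in TE-1. The levels behind these shares were 6.97 and 4.04 TPM in KYSE30 and 10.6 and 5.48 TPM in TE-1. HNRNPA3 as a whole had log2 ratios of -0.02 in KYSE30 and 0.02 in TE-1. In HNRNPR, the PAC at chr1:23303771 was listed in TE-1 only, with 5.37% of the gene with l-lactate and 3.18% in the control (change 2.19 points, interval 0.50 to 3.94). It is no internal end, as it lies at the annotated end of the gene, past both of its 3′ UTR PACs. In SRSF5 the share was 0.639% and 0.432% in KYSE30 and 1.15% and 0.632% in TE-1, and both intervals of the change held 0. In each gene the share was the larger with l-lactate wherever both libraries listed the PAC. How often this held for such PACs of all coding genes was not counted.

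The dominant site within a PAC was mostly fixed. Among PACs above 5 TPM in both libraries, it was the same base with l-lactate and control for 57 of 57 PACs in KYSE30 and 56 of 59 in TE-1. A shift of more than 24 nt, the distance within which sites were joined, occurred in 0 of 57 in KYSE30 (1.43% of all PACs) and 2 of 59 in TE-1 (1.24% of all). The distal PAC of HNRNPC had its dominant site 235 nt farther upstream with l-lactate than in the control, at 37.4% of 361 tags against 35.4% of 379 tags. The second PAC of HNRNPA3 had it 44 nt farther downstream, at 45.3% of 53 tags against 29.5% of 78 tags. In both PACs no single site held most of the tags, and the shares had wide Wilson intervals (32.6 to 42.5 and 30.7 to 40.3 for HNRNPC, 32.7 to 58.5 and 20.5 to 40.4 for HNRNPA3).

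Between the lines, 2 of 57 PACs shifted with l-lactate (1.96% of all), both in HNRNPA3, by 43 and 110 nt, and 1 of 55 among controls (2.06% of all), that of HNRNPC. HNRNPC had the same dominant site in both KYSE30 libraries and in the l-lactate library of TE-1. The distal PAC of SRSF2 had its dominant site 10 nt apart and the most distal PAC of HNRNPU 8 nt apart between the lines, in both treatments.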

How the data were processed

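PAS-seq of polyadenylated RNA was strand-specific per the labels. According to the paper's methods, the authors trimmed the reads, aligned them to GRCh38 with HISAT2, called poly(A) sites with CAGEr, excluded low sites and joined nearby sites into PACs. The deposited TPM are RPM values, tags of a PAC scaled to the total tags of its library, without a length correction and without raw counts. Whole tags and totals (7174991, 7425554, 8468958 and 10393799) were recovered from the spacing of the TPM values and used only for Wilson, Newcombe and exact binomial 95% intervals. A PAC was given to each coding gene of GENCODE 44 whose same-strand span held its dominant site, and placed by that site, 3′ UTRs first, then coding exons, then 5′ UTRs, noncoding exons and introns. Gene TPM are sums.

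limma 3.58.1 (R 4.3.3) with a trend was fitted to log2(TPM + 1), a scale that understates changes of low genes, over genes with a mean of at least 5 TPM. On data simulated with the same effect in both lines and a coefficient of variation of 0.1, it found 182 of 200 genes changed 2-fold by l-lactate. It made 15 false calls among the unchanged genes of the 9164. Effects that differ between the lines and smaller changes were not simulated. Nothing says that libraries came from separate cultures. Named genes have an intronic PAC, a shift past 24 nt, distal usage changed by 10 points, a 1.5-fold change in both lines or a call with l-lactate, the 5 largest differences between lines each way, or the 3 highest means. Genes and lists were chosen with earlier results of these data known. Alternatives changed the pseudocount, filter, scaling, gene span, fold, placement, minimum TPM and limits. Python 3.11.15, pandas 2.3.3, SciPy 1.17.1 and pysam 0.24.0 were used.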

Additional observations from a re-analysis of the deposited data

Results flagged for a closer look

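In 2 genes the l-lactate library lay on opposite sides of its control in the 2 lines, with both counting intervals away from 0. The share of all genes that do so was not counted, and abundant genes have narrower intervals. The log2 ratio of SRSF5 was -0.17 in KYSE30 (interval -0.25 to -0.08) and 0.12 in TE-1 (0.03 to 0.21). That of SRSF11 was -0.10 in KYSE30 (-0.19 to -0.01) and 0.10 in TE-1 (0.01 to 0.19). The sum of SRSF11 includes its first PAC, which is followed by a stretch rich in A. That PAC had 5.71 TPM with l-lactate and 9.56 TPM in the control of KYSE30, and 3.78 and 2.98 TPM in TE-1. The ratio of SRSF11 without it was not computed. Both genes were among those lower in TE-1 than in KYSE30. With 1 library per condition in each line, the difference between the lines was not tested.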

How the results depend on the processing

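With a pseudocount of 5 TPM, 3 of 32 genes were called higher with l-lactate (0 with 1, and with the other alternatives run), where 114 of all 9164 genes were called higher and 53 lower (3 and 1 with 1), and the cause was not tested. The counts between the lines ran from 17 to 19 higher and from 5 to 6 lower under every alternative run. HNRNPA1 was no longer called between the lines after TMM scaling (log2 difference 0.17, limma adjusted p = 0.062, range over its alternatives 0.00639 to 0.062). Past a log2 ratio of 0.32, the lower of the fold limits tried, 1 gene was higher in KYSE30 and 3 in TE-1. From 5 percentage points of distal usage, 2 genes were more and 1 less distal in KYSE30, and 4 more distal in TE-1. With a minimum of 1 TPM, 1 PAC shifted in KYSE30 with l-lactate. Counting shifts of any length gave 5 between the lines in each treatment. For these limits of fold, distal usage and shift, the shares over all genes or PACs were not counted. Because fewer PACs enter, those above 5 TPM gave 3′ UTR shares of 99.89% (KYSE30 control), 99.77% (TE-1 l-lactate) and 99.82% (TE-1 control), an intronic share of 0.150% in the TE-1 control, and 1 gene with an intronic PAC in KYSE30 with l-lactate and in each TE-1 library. With the exons of protein_coding transcripts only, which places noncoding exons and the 2 HNRNPU PACs outside the span of its coding transcripts in introns, the 3′ UTR shares were 99.64%, 99.58%, 99.37% and 99.29% (l-lactate then control, KYSE30 first), the intronic shares 0.320%, 0.353%, 0.607% and 0.694%, and the genes with an intronic PAC 5, 4, 6 and 6 of 34, or 14.7%, 11.8%, 17.6% and 17.6% against 9.17%, 9.06%, 9.77% and 9.83% of all genes, so that the members' share lay above that of all genes instead of below it. The PACs of HNRNPU, HNRNPR and SRSF9 counted in that setting lie outside the span of their coding transcripts, so it does not measure intronic cleavage alone. Line is a term of the fit, so l-lactate and control were compared within each line, and no library could be left out, as each condition of a line has only 1. The planned count test on recovered tags was not run, since the deposited values are scaled. Depth limits PACs to those of about 1 TPM or more, 8 to 11 tags.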
